A study of Mus musculus with 22 samples.

Results

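The response to loss of the DNA methyltransferase DNMT1 was followed in KO22, a mouse embryonic stem (ES) cell clone labelled as a Dux knockout. The 4 libraries were those titled Dux-KO22 in the series, 2 from cells given GSK-3484862 (KO22 GSK) and 2 from cells given its solvent (KO22 DMSO), out of 22 RNA sequencing libraries in all. GSK-3484862 is a small molecule that binds DNMT1 and causes the protein to be degraded. Treatment lasted 3 days, and the dose is uncertain because the treatment protocol states 1 uM and the design text 2 uM. The same treatment was given to N22 (titled Dux-N22) and WT cells, with 2 libraries for each treatment, and these 8 libraries served for comparison. The remaining 10 libraries were untreated cells. All of them were cultured with serum and LIF, the cytokine that holds ES cells undifferentiated. Edited cells were made by CRISPR-Cas9, and the titles KO22 and N22 were read as 1 clone each, with no Dux and 1 copy of Dux, so that a difference between KO22 and WT cannot be told apart from a difference between clones.

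DNMT1 copies CpG methylation onto the new DNA strand at replication, so that dividing cells that lose it lose methylation passively. In ES cells, methylation is known to help silence germline genes, one allele of imprinted genes, genes of the X chromosome that are used in testis and placenta, and some retroelements. Dux encodes a double homeobox transcription factor of the 2-cell embryo, which activates genes such as the Zscan4 family and endogenous retroviruses in the embryo and in rare ES cells. DNA methylation and DNMT1 protein were not analysed here, and the values below are RNA alone.

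The label was checked first. Duxf3, the Dux gene of the annotation on chromosome 10 (58229979 to 58232675, GRCm38), had 0 and 0 counts in KO22 GSK and 0 and 0 in KO22 DMSO. This allows up to 0.155 to 0.167 CPM (counts scaled to a fixed library total) in each library. WT GSK reached 19 and 18 Duxf3 counts, while N22 GSK reached 13 and 11. Solvent libraries held few or none whatever the line, with 1 and 1 for WT DMSO and 3 and 0 for N22 DMSO. The lack of Duxf3 counts thus sets KO22 apart with GSK only, and its DMSO libraries cannot test the label. The 5 Zscan4 genes summed to 0 and 1 counts in KO22 GSK, against 0 and 0 in KO22 DMSO. In WT the Zscan4 sum was 1114 and 1063 counts with GSK and 90 and 115 with DMSO. One library outside the treated set goes against this picture, since the untreated library labelled Dux-KO clone 22 had 5 Duxf3 counts and 49 Zscan4 counts, where the 3 untreated E14 libraries had 1, 0 and 0 Duxf3 counts and 92, 92 and 86 Zscan4 counts. It enters no test here. Dnmt1 mRNA had 8811 and 9051 counts in KO22 GSK and 8812 and 9454 in KO22 DMSO, and its difference (log2 -0.05 ± 0.03, SE) did not pass the test (edgeR adjusted p = 0.178).

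Depth was even, with 18472330 and 19063967 counts in KO22 GSK and 17973354 and 19332203 in KO22 DMSO, so that raw counts of a gene can be read side by side. The series ranged from 15803194 to 19427794. The ES cell markers were all abundant in KO22. Pou5f1 had 16733 and 17384 counts in KO22 GSK against 19263 and 19558 in KO22 DMSO, and Sox2 had 8764 and 9276 against 8961 and 9156. Nanog, Esrrb, Zfp42, Dppa5a and Utf1 had at least 5934 counts in each of the 4 libraries, the lowest being Nanog in KO22 GSK replicate 1. Fold changes below are log2 of GSK over DMSO, given with a standard error (SE). The SE was worked back from the fold change and edgeR's test statistic. It can be too small where a group has few counts, so it is not a bound for such genes. A gene is said to have risen or fallen only where edgeR's adjusted p was below 0.05.

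KO22 cells changed broadly. Of 16641 genes tested, 4124 rose (24.8%) and 3532 fell (21.2%), while 8985 were not called. The gene lists below are read beside these shares, whose order depends on the settings. Without the filter on low counts 3723 genes were called higher and 3961 lower. With RLE factors, another normalisation, 4032 were called higher and 3666 lower. The rises were larger than the falls, since 1692 genes rose and 413 fell by at least 2-fold, and 343 rose and 28 fell by at least 8-fold. The median log2 fold change over all tested genes was 0.00, and the 10th and 90th percentiles were -0.55 and 1.21. Among protein-coding genes 27.0% rose and 23.4% fell, against 18.0% and 10.0% of lincRNAs and 8.39% and 7.24% of processed pseudogenes.

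The share of genes called in each direction differed between classes of starting level, which were cut on the same KO22 DMSO libraries that enter the fold change. Of 589 genes above 100 RPKM (CPM scaled to gene length) in KO22 DMSO, 21.4% rose and 44.7% fell. Of the 4674 genes between 10 and 100 RPKM 19.3% rose and 35.7% fell, and between 0.1 and 1 RPKM the shares were 27.4% and 6.99%. The shifts at high levels were small, with median log2 fold changes of -0.02 at 1 to 10 RPKM, -0.07 at 10 to 100 RPKM and -0.07 above 100 RPKM, where 4 genes fell and 0 rose by at least 2-fold. Small changes are also called more readily in abundant genes. Of 250 genes with 1 to 3 counts summed over both KO22 DMSO libraries, 65.6% rose and 0 fell, and 84 of 169 genes with no count there rose. These lowest classes passed the filter on low counts through libraries in which they were high, so their shares describe the filter as well as the cells and are not read as support.

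**Figure D1:**
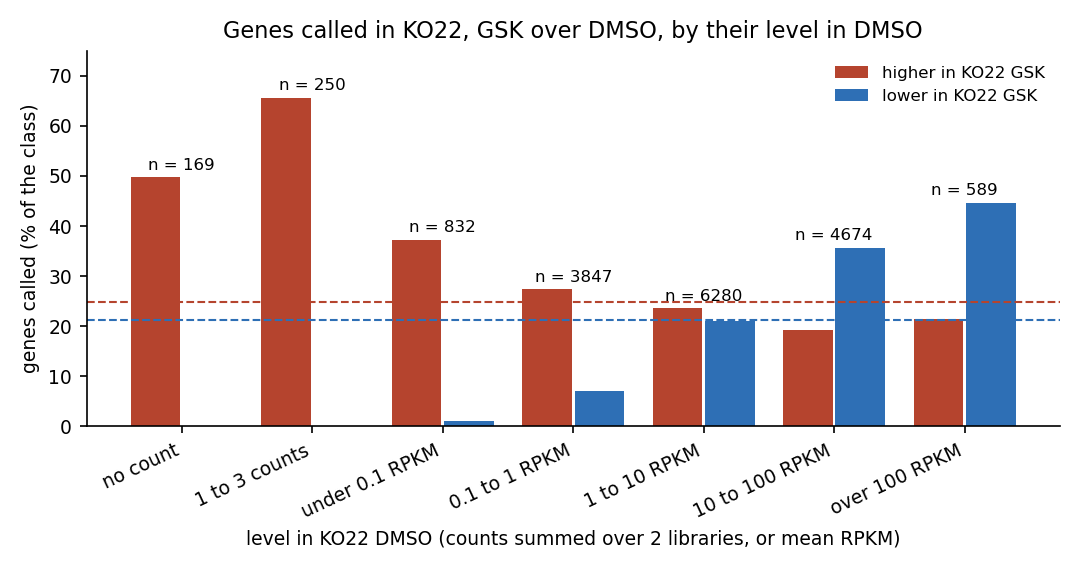
Share of tested genes called in KO22 by class of level in KO22 DMSO, as bars of the percentage called higher (red) and lower (blue) in KO22 GSK, with the number of genes in each class above the bars and the shares over all tested genes (24.8% and 21.2%) as dashed lines. The lower calls climb to 44.7% above 100 RPKM, and the higher calls are most frequent, at 65.6%, among genes with 1 to 3 counts.

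Among genes with more than 3 counts in each KO22 group, the largest rises included noncoding RNAs and proteins from imprinted loci and germ cell genes. Meg3, a maternally expressed noncoding RNA, had 2371 and 2614 counts in KO22 GSK, against 1 and 4 in KO22 DMSO, a log2 fold change of 9.87 ± 0.15 (adjusted p = 3.15e-57). Rian, transcribed from the same locus, had 2570 and 2747 counts in KO22 GSK against 1 and 6 in KO22 DMSO (9.50 ± 0.14). Mest, a paternally expressed gene of the hydrolase fold family, had 5857 and 6180 counts in KO22 GSK against 33 and 32 in KO22 DMSO (7.51 ± 0.08). In each case the treated libraries were far above the solvent libraries and close to each other. H19, the maternally expressed RNA next to Igf2, had 484 and 466 counts in KO22 GSK against 1 and 5 in KO22 DMSO (7.23 ± 0.23). The imprinted zinc finger gene Plagl1 had 475 and 507 against 8 and 3 (6.43 ± 0.24). Fkbp6, which germ cells need for the piRNA pathway and for chromosome pairing in meiosis, had 1014 and 1021 against 13 and 21 (5.87 ± 0.14).

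The other genes among the 12 largest rises were mostly genes of differentiated or germ cells. Nefm, a neurofilament chain of neurons, had 237 and 269 counts in KO22 GSK against 5 and 3 in KO22 DMSO (5.92 ± 0.31). Cox7b2, a testis form of a cytochrome oxidase subunit, had 149 and 111 against 1 and 4 (5.61 ± 0.39). Nlrp4c, an oocyte gene of the NLR family, had 94 and 123 against 1 and 4 (5.35 ± 0.40). None of these 3 genes exceeded 5 counts in a solvent library. Efhc2, which encodes an EF-hand protein, had 262 and 250 counts against 9 and 4 (5.25 ± 0.25), Tuba3b, a testis alpha-tubulin, had 183 and 170 against 5 and 5 (5.09 ± 0.31), and the zinc finger gene Zfp951 had 375 and 364 against 5 and 16 (5.10 ± 0.20). Reads shared between near-identical copies were not counted. Values of Tuba3b and its copy Tuba3a, and of the Xlr, Rhox, Zscan4 and Usp17l genes below, are therefore uncertain for the single member. The same holds for Duxf3 where its reads are shared with other Dux copies.

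A set of 10 genes was close to silent in KO22 DMSO and reached the highest levels among such genes in KO22 GSK. Serpina3m, a serine protease inhibitor gene, had 404 and 418 counts in KO22 GSK against 1 and 0 in KO22 DMSO, a ratio of 817 with a 95% counting interval of 146 to 32300. Mirg, the third long noncoding RNA of the Meg3 locus, had 301 and 356 counts against 0 and 0, and was at least 218-fold higher against a floor of 3 counts over the group. Peg13, an imprinted noncoding RNA inside the Trappc9 gene, had 126 and 146 against 0 and 0 (at least 90.1-fold higher). These intervals and floors cover counting error only. The doublecortin family gene Dcdc2a had 145 and 129 counts against 1 and 0 (ratio 272), and the fatty acid hydroxylase gene Cyp4a12b had 87 and 70 against 0 and 0 (at least 52-fold higher). Mgl2, a lectin of macrophages, had 82 and 75 against 0 and 0 (at least 52-fold higher), and Rtl1, a retrotransposon-derived imprinted gene, had 87 and 61 against 0 and 0 (at least 49-fold higher). Fv1, a retroviral restriction gene derived from an endogenous retrovirus, had 85 and 61 counts against 2 and 0 (ratio 72.6, interval 19.7 to 605). Xlr3a and Xlr3b complete the set and are described with the X-linked genes. Counting ignored strand, so reads of Rtl1 and of its antisense transcript, or of Peg13 and its host gene, cannot be told apart.

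Falls were smaller. Ly75, the endocytic receptor DEC-205, was the most abundant of the 12 largest, with 445 and 451 counts in KO22 GSK against 2702 and 3048 in KO22 DMSO (-2.70 ± 0.06, adjusted p = 9.12e-49). Lrtm2, a leucine-rich repeat membrane protein gene, had 5 and 8 counts in KO22 GSK against 98 and 51 in KO22 DMSO (-3.53 ± 0.42). Pax8, a transcription factor of thyroid and kidney, had 28 and 13 against 174 and 185 (-3.14 ± 0.26). All 12 were at least 4-fold lower in the fit. None of their groups overlapped, which the rule for naming them required. Xaf1, an interferon-inducible gene, had 56 and 78 counts in KO22 GSK against 350 and 414 in KO22 DMSO (-2.53 ± 0.17), and Nkx6-3, a homeobox gene, had 81 and 73 against 406 and 415 (-2.43 ± 0.16). The amino acid transporter gene Slc38a5 had 21 and 34 against 131 and 139 (-2.31 ± 0.28). The remaining genes were Bdh2 (-2.72), Fam196b (-2.71), Asgr2 (-2.54), Grk3 (-2.44), Cd3e (-2.23) and Serpinb6c (-2.03).

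**Figure D2:**
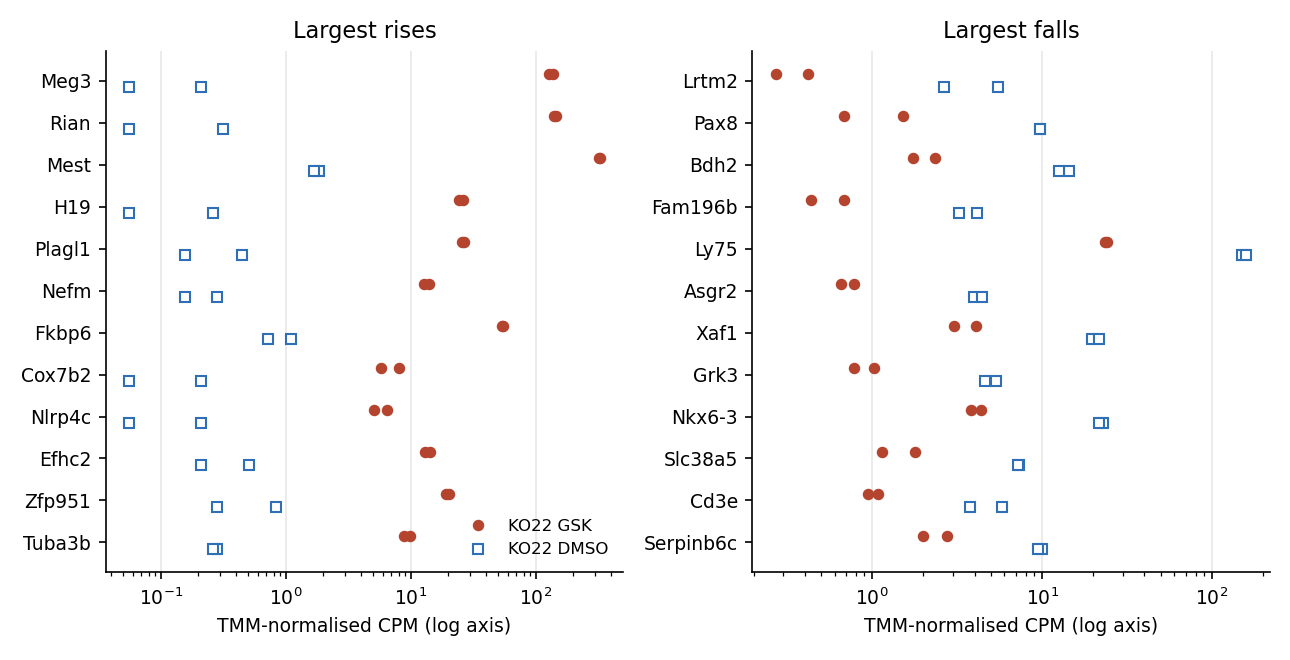
TMM-normalised CPM (log axis) of the 12 largest named rises (left) and falls (right) in each KO22 library, with red circles for KO22 GSK and open blue squares for KO22 DMSO. The treated and solvent libraries stand apart for all 24 genes, as the rule for choosing them required, and the falls span a narrower range than the rises.

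Imprinted genes are expressed from one parental allele, with methylation at imprinting control regions marking the silent or active copy. In KO22, 36 of 56 tested imprinted genes rose and 5 fell, with a median log2 fold change of 0.63 against 0.00 over all tested genes. The 7 genes of the Dlk1-Dio3 locus on chromosome 12 all rose. Dlk1, its paternally expressed Notch-like ligand, had 465 and 493 counts in KO22 GSK against 13 and 20 in KO22 DMSO (4.83 ± 0.19), and Dio3, which inactivates thyroid hormone, had 33 and 29 against 10 and 15 (1.29 ± 0.43). With the 2 genes at 0 counts in KO22 DMSO placed at their floor the median of the locus was 5.62, and 9.19 as fitted. Both parental classes were among the 7, the maternally expressed Meg3, Rian and Mirg and the paternally expressed Dlk1 and Rtl1. Elsewhere 5 of 12 genes rose and 2 fell on distal chromosome 7, 5 of 7 rose and 1 fell on proximal chromosome 6, and 3 of 4 rose at the Peg3 locus. Grb10, an adaptor that dampens insulin and growth factor signalling, fell, with 4630 and 4635 counts in KO22 GSK against 10841 and 11605 in KO22 DMSO (-1.30 ± 0.03, adjusted p = 1.39e-42). The other falls were Phlda2, a brake on placental growth (-1.20), Slc22a18 (-1.23), Mkrn3 (-0.50) and Copg2 (-0.33), and these 4 were named because they complete the count. The imprinted list was not chosen independently of these data.

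Genes of the X chromosome that are normally confined to testis or placenta formed the list with the highest median. Of 28 tested members 25 rose and 0 fell, with a median of 4.11, or 3.04 with the 8 genes that had no count in a KO22 group placed at their floor. Of the 52 found 24 were not tested, 29 had no count in KO22 DMSO and 13 had none in any KO22 library. Members silent in KO22 DMSO passed the filter on low counts through libraries in which they were high. The shares and the median, also those of the Rhox and Xlr genes, thus describe the filter as well and are not read as support. Rhox5, a reproductive homeobox gene, had 1197 and 1062 counts in KO22 GSK against 186 and 193 in KO22 DMSO (2.56 ± 0.09, adjusted p = 3.66e-36), and all 7 tested Rhox genes rose. Usp26, a testis deubiquitinase gene, had 355 and 391 against 19 and 14 (4.47 ± 0.20), and Tex13b had 206 and 194 against 11 and 15 (3.91 ± 0.27). Xlr3a had 118 and 120 counts in KO22 GSK against 0 and 1 in KO22 DMSO (ratio 237, interval 42.0 to 9380), and Xlr3b had 104 and 87 against 1 and 0 (ratio 190). In all of them the treated libraries lay above the solvent libraries with no overlap, and 8 of 9 tested Xlr genes rose. Fewer expressing cells and less RNA per cell cannot be told apart in bulk RNA, for these or for any gene below.

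The promoters of risen genes differ in CpG content, and 5 of them are shown because they span a wide range. Each is the RefSeq window from 250 bases before to 50 bases after an annotated start (GRCm38.p6), written 5′ to 3′ on the strand of the gene, with every CG in capitals. Plagl1 (chr10:13090582-13090881, plus strand) holds 26 CG, Fkbp6 (chr5:135349995-135350294, minus strand, the more upstream of its 2 windows) 21, Meg3 (chr12:109540746-109541045, plus strand, likewise) 13, Rhox5 (chrX:37754358-37754657, plus strand) 5 and Xlr3a (chrX:73097046-73097345, minus strand) 5.
Plagl1: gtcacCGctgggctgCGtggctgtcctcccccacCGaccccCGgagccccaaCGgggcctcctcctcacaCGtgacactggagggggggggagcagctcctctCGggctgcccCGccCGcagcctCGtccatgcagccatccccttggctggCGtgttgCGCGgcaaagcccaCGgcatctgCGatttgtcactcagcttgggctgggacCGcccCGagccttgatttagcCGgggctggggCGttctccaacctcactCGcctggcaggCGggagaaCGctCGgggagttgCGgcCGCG
Fkbp6: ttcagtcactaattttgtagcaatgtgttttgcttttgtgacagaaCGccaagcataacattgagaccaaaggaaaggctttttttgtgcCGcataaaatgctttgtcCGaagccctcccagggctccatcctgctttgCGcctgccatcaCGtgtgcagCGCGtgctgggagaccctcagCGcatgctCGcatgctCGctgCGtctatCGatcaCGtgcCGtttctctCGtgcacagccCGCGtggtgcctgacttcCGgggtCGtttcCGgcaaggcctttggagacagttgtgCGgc
Meg3: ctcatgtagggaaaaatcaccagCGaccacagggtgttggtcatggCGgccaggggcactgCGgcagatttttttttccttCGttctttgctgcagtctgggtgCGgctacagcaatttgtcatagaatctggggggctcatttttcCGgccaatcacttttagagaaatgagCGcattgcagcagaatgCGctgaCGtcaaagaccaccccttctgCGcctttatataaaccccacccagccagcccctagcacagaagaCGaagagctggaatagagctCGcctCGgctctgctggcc
Rhox5: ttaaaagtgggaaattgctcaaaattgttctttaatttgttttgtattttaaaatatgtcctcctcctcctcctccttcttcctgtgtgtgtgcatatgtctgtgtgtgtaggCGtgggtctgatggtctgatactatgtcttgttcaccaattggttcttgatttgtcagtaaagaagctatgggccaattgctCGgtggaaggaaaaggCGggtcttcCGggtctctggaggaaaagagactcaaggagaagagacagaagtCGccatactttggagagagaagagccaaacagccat
Xlr3a: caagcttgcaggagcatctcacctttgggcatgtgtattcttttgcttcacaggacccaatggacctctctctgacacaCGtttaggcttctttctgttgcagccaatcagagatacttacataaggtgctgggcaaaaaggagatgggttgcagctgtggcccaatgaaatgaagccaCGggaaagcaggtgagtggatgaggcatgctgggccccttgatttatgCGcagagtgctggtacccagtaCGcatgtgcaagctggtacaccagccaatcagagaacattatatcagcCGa

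Promoter windows could be matched for 9127 of 10828 tested protein-coding genes on the 16 chromosomes where at least 80% of genes had one. The median was 20 CG per window over all of these genes. It was 8 among the 186 genes that rose at least 8-fold, 17 among the 737 that rose 2- to 8-fold, 22 among the 1489 that rose by less, 19 among genes not called and 22 among genes that fell by less than 2-fold. Of the genes that fell at least 2-fold 79.6% had a window, just under the 80% set for chromosomes. Their median of 10 in the 203 windows found is read with caution. A low count of CG is thus not shown to be particular to strong rises. The median was 13 CG for genes under 1 RPKM in KO22 DMSO and 21 for the others, so the classes were repeated for the low ones. There the medians were 8 for rises of at least 8-fold, 17 for rises of 2- to 8-fold and 13 for genes not called. Beside these stood 8.5 in the 94 windows found for falls of at least 2-fold, read with the same caution. In that range 12.4% of 426 genes with fewer than 5 CG rose at least 8-fold, and the share was 9.83%, 7.99% and 6.13% in the next bins of 5 CG and 3.58% of 838 genes with 20 or more. Smaller rises did not follow this order, since 31.5% of genes with fewer than 5 CG and 42.0% of those with 20 or more rose by any amount. Starting levels still differed between these bins, with a median in KO22 DMSO of 0.163 RPKM under 5 CG and 0.299 RPKM at 20 or more. The part of the starting level in the order of the strong rises was not tested. Genes with no or almost no count in KO22 DMSO passed the filter on low counts through libraries in which they were high. The medians for strong rises and the shares under 1 RPKM thus describe the filter as well and are not read as support. These are descriptions without a test, and methylation of the windows was not analysed here.

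Germline genes are a known target of CpG methylation, and many carry the E-box CACGTG, the site read by MAX and its MGA partner in a repressor complex of germline genes. Of 49 tested germline and meiosis genes 25 rose and 5 fell (median 0.69). The rises were mostly in the other germ cell genes, where 18 of 26 rose and 2 fell, while among genes of the synaptonemal complex and recombination 7 of 23 rose and 3 fell, a share of rises near the 24.8% of all tested genes. Tuba3a had 3127 and 3097 counts in KO22 GSK against 924 and 1053 in KO22 DMSO (1.64 ± 0.06). Stk31, a testis kinase gene, had 716 and 800 against 138 and 191 (2.18 ± 0.10), and Tex19.1, which restrains retrotransposons in germ cells and placenta, had 4342 and 4460 against 2292 and 2391 (0.89 ± 0.04). In all 3 the groups were separate. The letters CACGTG, which read the same on both strands, stood in the windows of 8 of 23 risen germline genes (Tex12, Hormad1, Ddx4, Ddx25, Taf7l, Taf9b, Stk31 and Slc25a31) and 6 of 20 others, beside 11.5% of tested protein-coding genes and 7.15% of all windows. The Fkbp6 window shown above holds the motif at 2 places and the Plagl1 window at 1.

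The piRNA pathway silences transposons in germ cells through small RNAs, and 11 of its 21 tested genes rose while 0 fell (median 0.45). Besides Fkbp6 and Tex19.1, Asz1, a component of the germ cell nuage, had 44 and 42 counts in KO22 GSK against 0 and 2 in KO22 DMSO (ratio 42.7, interval 11.5 to 359). Tdrd12 had 850 and 828 against 577 and 585 (0.51 ± 0.07). Oocyte and maternal effect genes moved both ways, with 5 of 13 higher and 5 lower (median 0.04). Dppa3, or Stella, which protects the maternal genome from demethylation and marks the germ line, had 174 and 147 counts in KO22 GSK against 20 and 9 in KO22 DMSO (3.44 ± 0.24). Kit, the receptor of germ cell and oocyte growth, had 666 and 690 against 1280 and 1400 (-1.0 ± 0.06), and Ooep, of the oocyte's subcortical complex, had 248 and 248 against 552 and 591 (-1.22 ± 0.10).

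Genes of the 2-cell embryo from the Zscan4 and other multi-copy families stayed at or near 0 in KO22, where the multi-copy families summed to 11 and 6 counts with GSK and 6 and 2 with DMSO. Of 43 found, 25 had no count in any of the 4 KO22 libraries, and of 36 tested 6 rose and 0 fell, with a median of 0.00. The rises were mainly of genes outside the multi-copy families. Ddit4l, an inhibitor of mTOR signalling, had 357 and 393 counts in KO22 GSK against 70 and 87 in KO22 DMSO (2.23 ± 0.14), Zfp750, an epidermal zinc finger gene, had 289 and 305 against 83 and 73 (1.91 ± 0.15), and Trim43b had 77 and 63 against 9 and 10 (2.85 ± 0.35). Dppa4, which with DPPA2 acts upstream of Dux, had 3475 and 3354 against 2565 and 2847 (0.32 ± 0.04). Trim43c (18 and 21 counts against 2 and 5) and Usp17lb (3 and 1 against 0 and 0) complete the 6. In WT 35 of the same 36 genes rose and 0 fell, and in N22 33 rose and 0 fell, but 26 of the 36 had no count in a KO22 group and so passed the filter on low counts through other libraries, and these 2 counts are not read as support. Where KO22 had no count in either treatment the difference from WT cannot be bounded, and 3 of the 36 differences were called, all lower. When the fit held the 4 KO22 libraries alone, fewer of these genes were tested and the median was 2.07.

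**Figure D3:**
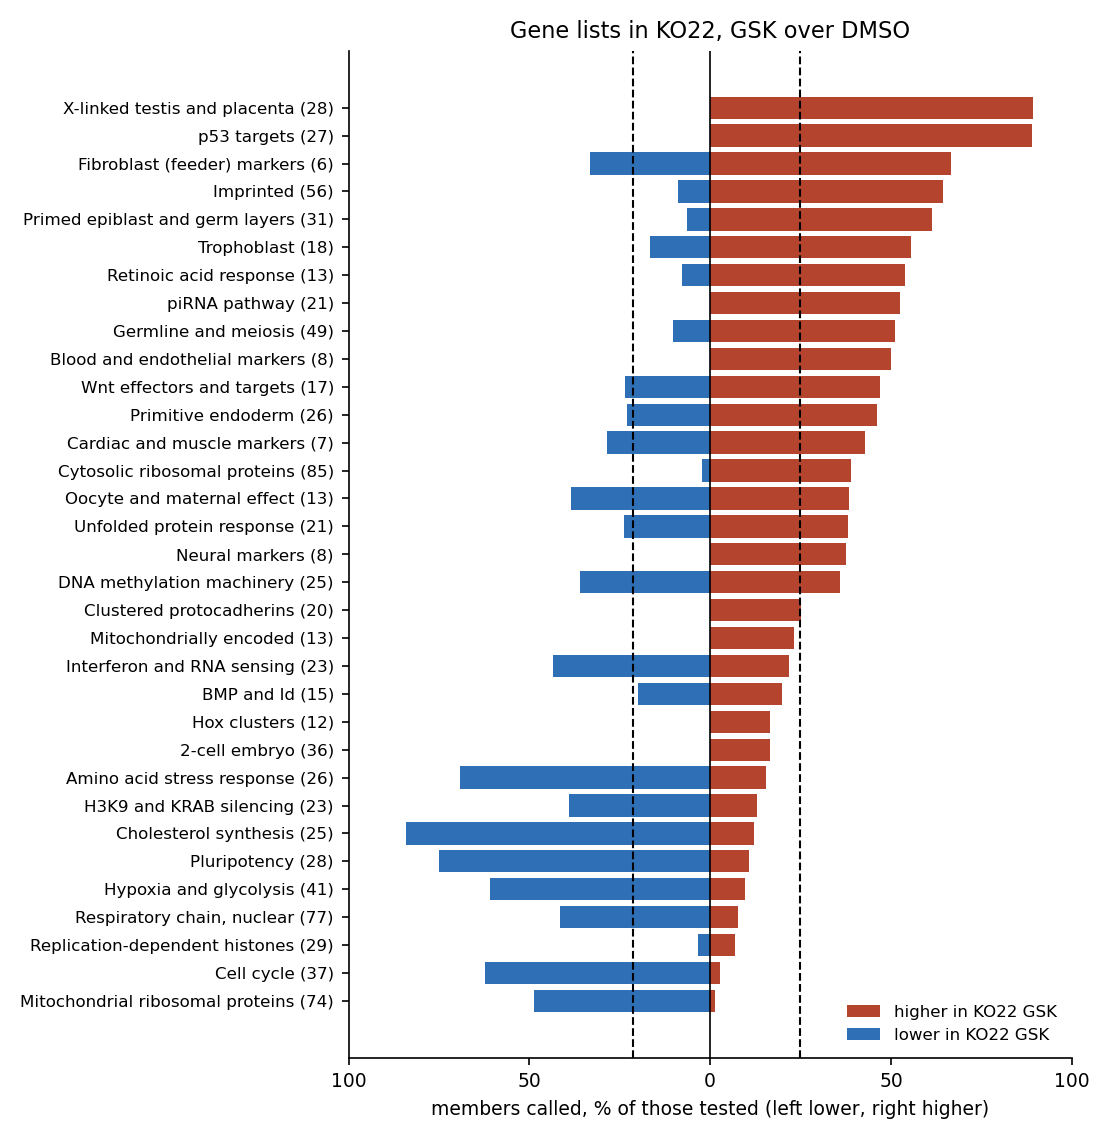
Members of 33 gene lists called higher (red, to the right) or lower (blue, to the left) in KO22 GSK against KO22 DMSO, in percent of the members tested, with the number tested in brackets and the shares over all tested genes (24.8% and 21.2%) as dashed lines. X-linked testis and placenta genes and p53 targets lie at the top with 0 lower, and cholesterol synthesis and pluripotency genes extend farthest to the left.

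Most genes of the pluripotency network fell, few of them by as much as 2-fold. Of 28 tested genes 21 fell and 3 rose, with a median of -0.23. Tfcp2l1, a transcription factor of the naive state, had 6048 and 6560 counts in KO22 GSK against 11998 and 13016 in KO22 DMSO (-1.01 ± 0.03). Tbx3 had 2510 and 2648 against 4606 and 5273 (-0.96 ± 0.04), Tdh, the threonine dehydrogenase that feeds ES cell metabolism, had 2587 and 2578 against 4770 and 4793 (-0.91 ± 0.04), and Esrrb had 12325 and 12472 against 17774 and 18927 (-0.59 ± 0.03). No treated library reached a solvent library for any of these 4. Pou5f1 fell by only 0.21 and Nanog by 0.64, and Sox2 was not called (-0.03, adjusted p = 0.527). The 3 rises were Dppa3, Fgfbp1 (1.95) and Sall4 (0.18). These falls stand beside 21.2% of all tested genes, 35.7% of those at 10 to 100 RPKM in KO22 DMSO and 44.7% of those above 100 RPKM. Whether pluripotency genes fell more often than other genes of the same level was not tested.

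Genes of the primed epiblast and the germ layers, which ES cells switch on as they leave the naive state, included 19 rises and 2 falls among 31 tested (median 0.70). Pou3f1, or OCT6, had 1353 and 1511 counts in KO22 GSK against 616 and 681 in KO22 DMSO (1.12 ± 0.07). Nodal, the ligand that patterns the epiblast, had 2085 and 2193 against 1388 and 1367 (0.61 ± 0.05), and its antagonist Lefty2 had 1336 and 1531 against 855 and 885 (0.70 ± 0.06). Sox11, a neural progenitor factor, had 615 and 602 against 308 and 328 (0.92 ± 0.09). The groups did not overlap in any of the 4. Among primitive endoderm genes 12 of 26 rose and 6 fell (median 0.68), the falls at a share near the 21.2% of all tested genes. Its basement membrane genes went in both directions, with Lamb1 (1381 and 1412 against 831 and 929 counts; 0.65 ± 0.06), Col4a1 (954 and 995 against 538 and 582; 0.78 ± 0.07) and Sparc (0.36 ± 0.03) higher and Nid1 (3098 and 3335 against 4556 and 4890; -0.57 ± 0.04) lower. Of 18 trophoblast genes 10 rose and 3 fell (median 1.00). Tfap2c, which acts in trophoblast and in germ cell precursors, had 979 and 1034 counts in KO22 GSK against 423 and 443 in KO22 DMSO (1.20 ± 0.07), and Wnt7b had 84 and 60 against 9 and 12 (2.75 ± 0.34). Tead4 (-0.95 ± 0.08) and Ets2 (-0.78 ± 0.09) fell.

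Signalling genes moved in both directions. Of 17 Wnt effectors and targets 8 rose and 4 fell (median 0.21), the falls at a share near the 21.2% of all tested genes. Lef1, a nuclear effector of Wnt, had 170 and 127 counts in KO22 GSK against 38 and 43 in KO22 DMSO (1.85 ± 0.19), and Sp5 rose by 1.74, while Ccnd1 (-0.86) and Cdx1 (-1.28) fell. Of 15 BMP and Id genes 3 rose and 3 fell (median 0.14), shares near the 24.8% and 21.2% of all tested genes, with Id1 at 0.73 and Id2 at 1.64 and with Smad7 at -0.47 and Bmp4 at -0.51. Of 13 retinoic acid response genes 7 rose and 1 fell (median 0.73), among them the retinoic acid binding proteins Crabp2 (133 and 131 counts against 43 and 50; 1.48 ± 0.20) and Crabp1 (0.73), the receptor Rarg (0.22) and the retinol dehydrogenase Rdh10 (0.83).

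Markers of other cell types were examined as well. Of 6 tested fibroblast markers, which would mark feeder cells, 4 rose and 2 fell. Col1a1 had 116 and 107 counts in KO22 GSK against 38 and 40 in KO22 DMSO, while Dcn had 0 counts in all 4 libraries. The 12 fibroblast markers summed to 72.0 and 73.4 CPM in KO22 GSK, against 62.2 and 67.9 CPM in KO22 DMSO. Of 8 neural markers 3 rose and 0 fell, with Neurod1 at 180 and 202 counts against 33 and 54 (2.11 ± 0.18) and Tubb3 at 0.43. Cardiac and muscle markers rose in 3 of 7 and fell in 2 (median 0.44). Ttn was among the falls (-0.77), Actc1 had 0 counts in all 4 libraries, and the 3 risen members are not named here. Blood and endothelial markers rose in 4 of 8 and fell in 0, with Tek at 1.23 and Kdr at 1.60. Whether a few differentiated cells contributed to the rises in the lists above was not tested.

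Targets of p53, the transcription factor of the DNA damage response, rose almost as a block. Of 27 tested genes 24 rose and 0 fell, with a median of 0.85, beside 24.8% of all tested genes that rose and 21.2% that fell. Mdm2, which encodes the ubiquitin ligase of p53, had 5524 and 5682 counts in KO22 GSK against 2087 and 2289 in KO22 DMSO (1.34 ± 0.04, adjusted p = 4.00e-39). The polo-like kinase gene Plk2 had 1950 and 2054 against 496 and 503 (1.98 ± 0.06), the apoptosis effector Perp had 1104 and 1169 against 221 and 192 (2.44 ± 0.08), and Pmaip1, the BH3-only protein NOXA, had 984 and 1090 against 176 and 193 (2.47 ± 0.09). All 4 were at least 2-fold higher in both treated libraries than in either solvent library. Of 14 genes for cell cycle arrest and feedback 13 rose, and of 13 apoptosis genes 11 rose. Of 37 cell cycle genes 23 fell and 1, Cdc20, rose (median -0.17). The D cyclins led, with Ccnd2 at 540 and 564 counts in KO22 GSK against 1569 and 1682 in KO22 DMSO (-1.58 ± 0.07) and Ccnd3 at 5544 and 5662 against 8967 and 9079 (-0.71 ± 0.03). Rrm2, a subunit of ribonucleotide reductase, fell by 0.61 and cyclin E1, Ccne1, by 0.56. Falls of cell cycle genes stand beside 35.7% of genes at 10 to 100 RPKM in KO22 DMSO and 44.7% of those above 100 RPKM. Whether they fell more often than other genes of the same level was not tested.

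Metabolic genes mostly fell. Their shares stand beside 21.2% of all tested genes that fell, 35.7% of those at 10 to 100 RPKM in KO22 DMSO and 44.7% of those above 100 RPKM. Of 41 hypoxia and glycolysis genes 25 fell and 4 rose (median -0.26). The triose phosphate isomerase gene Tpi1 had 3640 and 3574 counts in KO22 GSK against 8155 and 8472 in KO22 DMSO (-1.22 ± 0.04), the glucose transporter gene Slc2a3 had 8358 and 8518 against 14439 and 15715 (-0.86 ± 0.03), and the lactate dehydrogenase gene Ldha had 14276 and 14178 against 21731 and 22091 (-0.64 ± 0.03). Eno1 fell by 0.50. Cholesterol synthesis fell in 21 of 25 genes and rose in 3 (median -0.38), with Ebp at 466 and 483 counts against 820 and 871 (-0.85 ± 0.08), Nsdhl at 402 and 406 against 732 and 689 (-0.84 ± 0.08), Insig1 at -0.47 and Lss at -0.43. Among genes of the amino acid stress response, the ATF4 programme, 18 of 26 fell and 4 rose (median -0.22). Cth, which makes cysteine from cystathionine, had 2033 and 1885 counts in KO22 GSK against 5173 and 5557 in KO22 DMSO (-1.47 ± 0.04), and Slc7a3 (-0.84), Gpt2 (-0.65) and Pck2 (-0.75) fell as well. Unfolded protein response genes went both ways, with 8 of 21 higher, including Canx (0.38), Xbp1 (0.31), Syvn1 (0.47) and Edem1 (0.34). Another 5 were lower, a share near the 21.2% of all tested genes.

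Housekeeping complexes moved by small amounts. Their shares stand beside 24.8% of all tested genes that rose and 21.2% that fell. Falls were more frequent among abundant genes, at 35.7% for 10 to 100 RPKM in KO22 DMSO and 44.7% above 100 RPKM. Whether these complexes fell more often than other genes of the same level was not tested. Of 85 cytosolic ribosomal protein genes 33 rose and 2 fell (median 0.08), but without KO22 GSK replicate 1 only 19 rose and 5 fell. Rpl39l, a germ cell paralogue, stood out with 2046 and 1998 counts in KO22 GSK against 522 and 556 in KO22 DMSO (1.89 ± 0.06), whereas Rps2 rose by 0.22 and Rplp1 by 0.23. Of 74 mitochondrial ribosomal protein genes 36 fell and 1 rose (median -0.15), with Mrpl15 at -0.41 and Mrps15 at -0.48. Of 77 nuclear genes of the respiratory chain 32 fell and 6 rose (median -0.11), and 19 fell without KO22 GSK replicate 2. Their 2 strongest calls were rises of Cox7b2 and Cox6b2 (532 and 532 counts against 268 and 309; 0.86 ± 0.10), both forms of male germ cells, followed by falls of Sdhb (-0.49) and Ndufb11 (-0.47). Of 13 genes of the mitochondrial genome 3 rose, mt-Co1 (0.25), mt-Nd2 (0.35) and mt-Cytb (0.18), a share near the 24.8% of all tested genes. Mitochondrial reads took 2.66% and 2.86% of the KO22 GSK libraries and 2.28% and 2.36% of the KO22 DMSO libraries. Its part in these gene groups was not tested.

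The DNA methylation machinery changed in both directions, with 9 of 25 genes higher and 9 lower (median -0.02). The shares of this list and of those that follow stand beside 24.8% of all tested genes that rose and 21.2% that fell. Falls were more frequent among abundant genes, at 35.7% for 10 to 100 RPKM in KO22 DMSO. Dnmt3l, the cofactor of the de novo enzymes, had 11494 and 11846 counts in KO22 GSK against 7213 and 7510 in KO22 DMSO (0.64 ± 0.03). The de novo methyltransferase gene Dnmt3b had 5462 and 5334 against 4054 and 4486 (0.32 ± 0.04). Uhrf1, which guides DNMT1 to newly copied DNA, had 11198 and 11317 against 12805 and 13454 (-0.24 ± 0.03), and Tet2, a 5-methylcytosine oxidase gene, had 1790 and 2007 against 3231 and 3492 (-0.84 ± 0.05). Among genes of H3K9 methylation and KRAB silencing 3 of 23 rose and 9 fell (median -0.05). Atf7ip, the partner that stabilises SETDB1, more than doubled its counts, to 6765 and 6863 in KO22 GSK against 3028 and 3330 in KO22 DMSO (1.08 ± 0.04), while Zfp57, which keeps methylation at imprinting control regions, had 7116 and 7072 against 9822 and 10657 (-0.55 ± 0.03). Trim28 (-0.24) and Cbx1 (-0.31) fell. Interferon and RNA sensing genes, which respond to double-stranded RNA in differentiated cells, included 10 falls and 5 rises among 23 tested (median -0.10). Their rises were at a share near the 24.8% of all tested genes. Ifitm3 (0.89 ± 0.06) and the RNA sensor gene Ddx58 (1204 and 1210 counts against 824 and 956; 0.42 ± 0.06) rose, and the adaptor Mavs (-0.51) and Stat2 (-0.50) fell.

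Other gene families known as methylation targets had shares of rises near or below that of all genes. Hox genes rose in 2 of 12 cases, Hoxc13 (0.98) and Hoxd1 (1.25), and clustered protocadherins in 5 of 20, among them Pcdhgb6 (1.52) and Pcdhgb7 (1.01), with 0 lower in either list, beside 24.8% of all tested genes that rose. The protocadherins had a median of 0.41 and summed to 63.9 and 64.3 CPM in KO22 GSK against 45.3 and 47.2 CPM in KO22 DMSO, and in WT 15 of the 20 rose (median 1.27). Of 29 replication-dependent histone genes 2 rose and 1 fell.

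Along the genome, the share of genes called higher was near that of all genes on each autosome, between 21.7% and 28.4%. Strong rises were denser on the X chromosome, where 43 of 617 tested genes (6.97%) rose at least 8-fold, against 0.947% to 2.95% of genes on single autosomes. Of the 12 tested genes of the Y chromosome 4 rose at least 8-fold. Genes silent in KO22 DMSO, several X-linked ones among them, passed the filter on low counts through libraries in which they were high. The density of strong rises, and the runs that follow, thus describe the filter as well and are not read as support. Some neighbours rose together. Of 727 genes that rose at least 4-fold, 142 (19.5%) lay in 64 runs of genes that rose at least 4-fold with gaps of at most 50000 bases between them, and the other tested genes inside some of these windows did not rise as much. The longest run held 6 Xlr genes among 8 tested in its window, from Xlr5b to Xlr5c on the X chromosome (73148796 to 73292976), followed by 5 genes around the lens crystallins Cryge, Crygd and Crygc on chromosome 1 (65012689 to 65123214) and 4 genes around Slfn3 and Slfn4, of the Schlafen family, on chromosome 11 (83175186 to 83260534). Meg3, Rtl1 and Rian formed a run of 3. No test was made of these counts.

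The response of KO22 overlapped with that of WT, in which 4776 genes rose (28.7%) and 4680 fell (28.1%). Of the KO22 rises 2644 were also rises in WT, which is 64.1% of those in KO22 and 55.4% of those in WT. Of the KO22 falls 2266 were shared, 64.2% of those in KO22 and 48.4% of those in WT. In 350 genes that rose in KO22 and 287 that fell, WT moved in the opposite direction and the difference itself was called. N22 had 4481 rises (26.9%) and 4331 falls (26.0%). Testing the difference of the responses directly, KO22 minus WT was higher for 3042 genes (18.3%) and lower for 2244 (13.5%). The excess of higher calls was smaller with RLE factors (2668 higher, 2535 lower) and without the filter on low counts (2498 higher, 2445 lower). KO22 minus N22 was higher for 1801 genes (10.8%) and lower for 1300 (7.81%). Both differences use the same KO22 libraries.

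**Figure D4:**
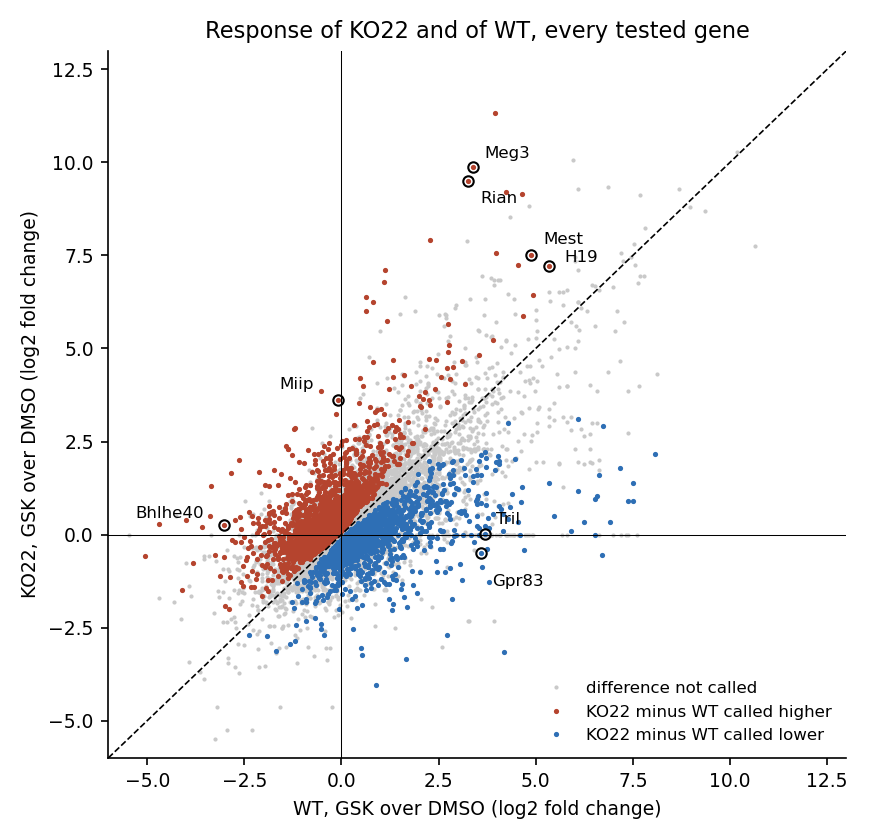
Log2 fold change of GSK over DMSO in KO22 (vertical axis) against WT (horizontal axis) for each of the 16641 tested genes, with red points where KO22 minus WT was called higher, blue where it was called lower, grey where it was not called, and equality as the dashed line. Circled genes are named, with Meg3, Rian, Mest, H19, Miip and Bhlhe40 above the line and Tril and Gpr83 below it.

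Many of these differences came with different levels in the solvent libraries. Set directly against each other, a comparison added after the responses had been seen, KO22 and WT differed at 3728 genes (22.4%) when both were given GSK and at 8643 genes (51.9%) when both were given DMSO. The median absolute log2 difference was 0.18 with GSK and 0.35 with DMSO, and 398 genes with GSK and 2008 with DMSO differed by at least 2-fold. Meg3 showed this in 1 gene. KO22 had 2371 and 2614 counts with GSK and WT 2944 and 3027, whereas KO22 had 1 and 4 with DMSO and WT 270 and 308. Its response was larger in KO22 by 6.49 ± 0.24 (log2, adjusted p = 1.23e-32), and N22, with 2294 and 2555 counts with GSK against 0 and 2 with DMSO, was also near 0 with DMSO. The 3 untreated E14 libraries had 7, 8 and 9 Meg3 counts, so that the WT DMSO libraries stand apart from these as well.

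Among the 8 largest differences in each direction, all 16 genes differed more between KO22 and WT with DMSO than with GSK. These genes were chosen by the difference of the responses in the same fit. As the lines differed more widely with DMSO over all genes, this count follows largely from the choice and is not read as support. Miip, an inhibitor of cell migration and invasion, had 489 and 549 counts in KO22 GSK against 48 and 36 in KO22 DMSO, while WT had 542 and 566 with GSK against 588 and 609 with DMSO (difference 3.70 ± 0.16). Fv1 lies next to Miip on chromosome 4 and had 85 and 61 counts against 2 and 0 in KO22, and 72 and 81 against 53 and 47 in WT. Bhlhe40, a hypoxia-responsive repressor of the clock, had 186 and 233 counts in KO22 GSK against 175 and 171 in KO22 DMSO and was not called in KO22 (0.25, adjusted p = 0.0625), while WT had 177 and 185 with GSK against 1392 and 1558 with DMSO (difference 3.27 ± 0.15). Dll1, a Notch ligand, had 56 and 73 counts against 16 and 12 in KO22 and 86 and 83 against 155 and 123 in WT (difference 2.88 ± 0.35). Aass, an enzyme of lysine breakdown, had 688 and 732 against 32 and 39 in KO22 and 904 and 875 against 272 and 317 in WT (difference 2.69 ± 0.18). In the other direction, Gpr83 had 90 and 90 counts with GSK against 103 and 148 with DMSO in KO22, and 55 and 31 against 0 and 7 in WT (difference -4.08 ± 0.56). Tril, an adaptor of Toll-like receptors, had 62 and 54 against 48 and 65 in KO22 and 58 and 47 against 3 and 5 in WT (difference -3.66 ± 0.54), and Nckap1l, a haematopoietic regulator of actin, had 540 and 595 against 323 and 324 in KO22 and 452 and 445 against 26 and 42 in WT (difference -2.94 ± 0.19). For several of these genes the untreated E14 libraries, which enter no test, were nearer on a log scale to KO22 DMSO than to WT DMSO, with 101, 107 and 86 counts for Bhlhe40, 134, 161 and 175 for Gpr83, 55, 79 and 75 for Tril and 148, 186 and 185 for Nckap1l. For Miip and Aass, with 273, 330 and 286 and with 177, 170 and 171 counts, they were nearer to WT DMSO. Between the lines, KO22 over WT was -0.10 with GSK and -3.80 with DMSO for Miip, and 0.34 with GSK and 3.27 with DMSO for Nckap1l.

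Gene groups differed between the lines as well. Hypoxia and glycolysis genes fell less in KO22, where 25 of 41 were lower (median -0.26), than in WT, where 36 were lower (median -1.05), and 30 of the 41 differences were called higher and 2 lower. Bnip3, a mitophagy receptor named after its values were seen, had 471 and 559 counts in KO22 GSK against 396 and 419 in KO22 DMSO (0.32 ± 0.07), and its difference from WT was 2.60 (adjusted p = 1.56e-33). In N22 35 of the 41 were lower (median -0.96). Whether the lines differed in these genes mainly with DMSO or with GSK was not tested. Cholesterol synthesis genes had a median of -0.38 in KO22, -0.60 in N22 and -0.74 in WT, and 15 of 25 differences from WT were called higher and 1 lower. Cytosolic ribosomal protein genes rose in 33 and fell in 2 cases in KO22, and rose in 9 and fell in 28 in WT, with 37 of 85 differences called higher and 3 lower. Of 27 p53 targets 24 were higher in KO22, 25 in N22 and 22 in WT, with 8 differences from WT called higher and 4 lower. Set against N22, 3 of the 27 differences were called higher and 10 lower, 9 of these among the 14 genes for cell cycle arrest and feedback. The imprinted list rose in 36 of 56 cases in KO22 and 31 in WT, with 18 differences called higher and 4 lower. In N22 33 of the 56 rose, and 5 differences of KO22 from N22 were called higher and 4 lower. These shares are read against 18.3% and 13.5% of all tested genes for WT and 10.8% and 7.81% for N22. The excess of higher over lower calls against WT depends on normalisation and filter.

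**Figure D5:**
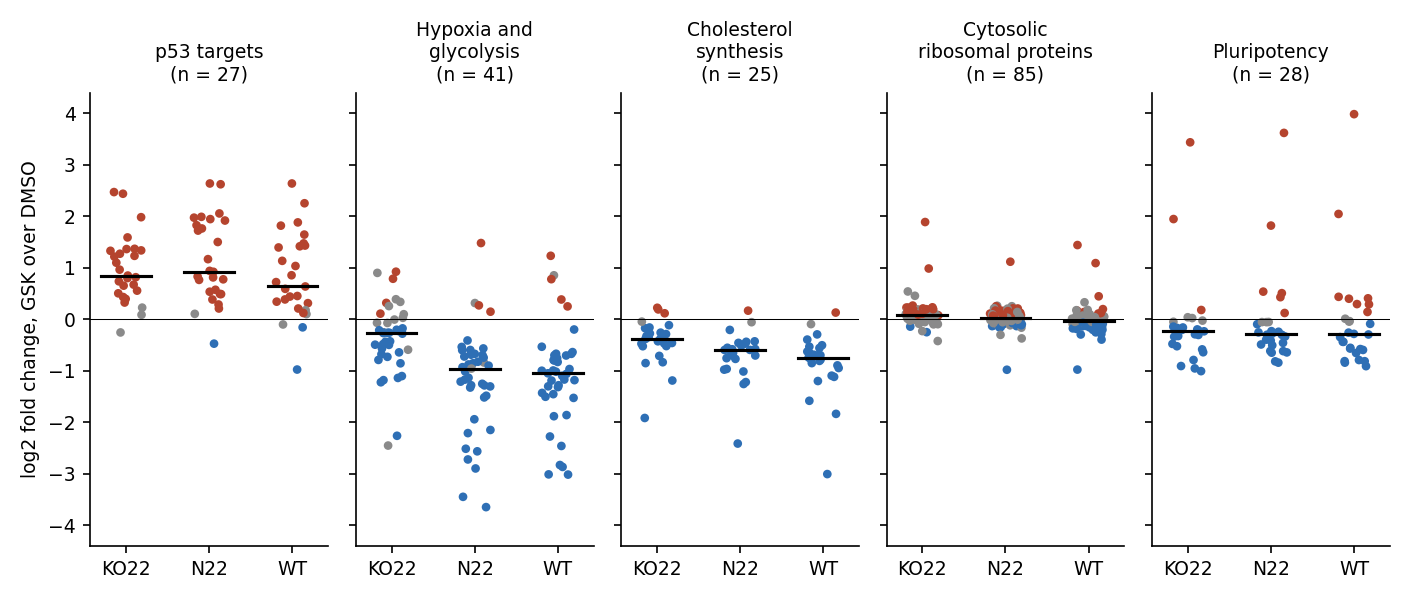
Log2 fold change of GSK over DMSO for each tested member of 5 gene lists in KO22, N22 and WT, with red points called higher, blue called lower and grey not called, and the median as a bar. Hypoxia and glycolysis genes have a median of -0.26 in KO22, against -0.96 in N22 and -1.05 in WT, while the p53 targets lie mostly above 0 in all 3 lines.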

How the data were processed

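RNA was measured in 22 libraries of mouse ES cells, 12 of them treated (6 groups of 2). The authors deposited raw read counts per gene (47729 genes, 47224 with a symbol). Per the file headers, fragments were counted as pairs, without regard to strand and without multi-mapping reads. Per the submitters' processing notes, fastp 0.23.2, HISAT2 2.1.0, featureCounts 2.0.1 and DESeq2 1.40.2 were used, on GRCm38. Treated libraries held 16759053 to 19427794 counts. Nothing in the labels says that replicates came from separate cultures, so the spread behind the p-values is that between these libraries and may be technical.

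The 12 treated libraries were fitted together with edgeR 4.0.16 (R 4.3.3, limma 3.58.1): TMM factors, genes kept by filterByExpr at a minimum count of 10, robust quasi-likelihood tests, Benjamini-Hochberg adjustment over 16641 genes, threshold 0.05. The common biological coefficient of variation was 0.0435. A total of 5 contrasts were tested: GSK over DMSO in KO22, N22 and WT, and the KO22 response minus that of WT and of N22. The direct comparisons of KO22 with WT within GSK and within DMSO used the same fit. Other settings tried were RLE factors, DESeq2 1.42.0, a fit without the filter, only the compared groups, the replicate number as a block, each library left out in turn and a 2-fold threshold. The fit was tested on simulated data.

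Genes were named by rule: Duxf3, the Zscan4 family and Dnmt1; the 12 largest rises and falls in KO22 whose groups did not overlap and whose log2 CPM averaged 1 or more, without unnamed gene models, pseudogenes and genes with at most 3 counts in a group; up to 4 called members with the smallest p in each list; the 10 genes with at most 3 counts in KO22 DMSO that reached the highest CPM in KO22 GSK; and the 8 largest differences from WT in each direction. Other genes were named after their values were seen: those that complete a count, ES cell markers, members of the genomic runs and promoter counts, Dlk1, Dio3, Igf2, Dcn, Actc1 and Bnip3. The comparison and the 34 gene lists (921 of 1136 genes tested) were chosen with earlier results of these data known. Symbols and positions are those of GENCODE M21. A gene that the rule names is not reported here.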

Additional observations from a re-analysis of the deposited data

Results flagged for a closer look

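The responses of KO22 and WT differed by at least 4-fold, by edgeR's test of the difference itself, for 26 of the named genes, and each value that follows is the log2 fold change in KO22 minus that in WT. At imprinted loci the differences were 6.49 for Meg3, 6.23 for Rian, 7.37 for Mirg, 4.96 for Rtl1 and 2.62 for Mest. Mirg and Rtl1 had 0 counts in KO22 DMSO, so their fitted values depend on the fit's prior count and are not bounds. Among the other genes close to silent in KO22 DMSO they were 5.38 for Fv1, 3.57 for Xlr3a and 2.69 for Xlr3b. The other positive differences were 3.70 for Miip, 3.27 for Bhlhe40, 2.97 for Ppp1r3b, 2.88 for Dll1, 2.70 for Ramp2, 2.69 for Aass, 2.34 for Zfp951 and 2.04 for Lef1. Negative differences were -4.08 for Gpr83, -3.66 for Tril, -3.28 for Pla2g4e, -2.98 for Samd9l, -2.94 for Nckap1l, -2.83 for Asgr2, -2.79 for Cemip, -2.75 for Pla2g4c, -2.69 for Fam196a and -2.01 for Xaf1.

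Asgr2, a subunit of the hepatic asialoglycoprotein receptor, had 12 and 15 counts in KO22 GSK against 71 and 85 in KO22 DMSO, a fall of -2.54 in KO22, while WT was at 0.30 and not called. Pla2g4e had 44 and 27 counts in KO22 GSK against 108 and 117 in KO22 DMSO, and 48 and 49 in WT GSK against 20 and 12 in WT DMSO. Ramp2, a partner of the calcitonin receptor-like receptor, had 104 and 96 counts in KO22 GSK against 6 and 12 in KO22 DMSO, and 70 and 86 in WT GSK against 58 and 36 in WT DMSO.

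Outside the treated set, the untreated library labelled Dux-KO clone 22 held 5 Duxf3 counts, where the treated and solvent KO22 libraries held 0.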

How the results depend on the processing

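The count of genes called in KO22 was 7656, and 6289 with DESeq2 (3369 higher, 2920 lower). It was 7698 with RLE factors (4032 higher, 3666 lower) and 7503 with only the compared groups. Without the filter it was 7684 (3723 higher, 3961 lower), so that falls outnumbered rises in that setting. Between 78.8% and 99.4% of the KO22 calls were kept in the same direction under these alternatives, the block and each left-out library, and 0 were called in the opposite one. Requiring a 2-fold change left 2105 genes, 1692 higher and 413 lower. KO22 minus WT had 2015 higher and 1901 lower calls with DESeq2. It had 2668 and 2535 with RLE factors, and 2498 and 2445 without the filter. The excess of higher calls was thus smaller in these settings than in the main fit. With DESeq2, KO22 minus N22 had 2047 calls, 1140 of them higher. The cause was not tested. Leaving out 1 library gave 6312 to 6494 calls in KO22 (3446 to 3584 higher, 2863 to 2948 lower), 4455 to 4683 in KO22 minus WT and 2391 to 2680 in KO22 minus N22.

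The replicate numbers did not pair the samples, since the 15 correlations of deviations between groups lay between -0.017 and 0.029. With the replicate number as a block 7683 genes were called in KO22 (4133 higher, 3550 lower), 5320 in KO22 minus WT and 3135 in KO22 minus N22.

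Of 1709 values of named genes under the alternatives, 1669 kept direction and call, 33 lost their call, 4 gained one and 3 turned direction. All 3 were of Tril in KO22, which was never called: -0.015 without the filter, -0.14 without KO22 DMSO replicate 1 and -0.11 without KO22 GSK replicate 1, in a range of -0.14 to 0.20 over the left-out libraries; the cause was not tested. Dnmt1 was called lower without the filter (-0.09, adjusted p = 0.032). Of 610 counts of list members 567 stayed within 1.5 times, and of 305 list medians 278 within 0.1. Depth sets the floor at 3 counts, or 0.155 to 0.167 CPM in KO22 libraries.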

Other observations

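The genes with the largest rises in KO22 and the largest differences from WT, 26 in all, were looked up in the untreated libraries after their values were seen, and none of these libraries enters a test. The untreated library labelled Dux-KO clone 22 differed from KO22 DMSO for some of them. Miip had 48 and 36 counts in KO22 DMSO and 372 in that untreated library, Zfp951 had 5 and 16 against 80, and Aass had 32 and 39 against 175. The other untreated Dux-KO libraries, clones 15 and 52, had 215 and 168 Miip counts, 3 and 4 Zfp951 counts and 25 and 42 Aass counts. Whether the untreated library and the KO22 libraries come from the same clone was not tested.

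For other genes WT DMSO differed from the untreated E14 libraries. Bhlhe40 had 1392 and 1558 counts in WT DMSO, and 101, 107 and 86 in untreated E14. Ppp1r3b had 115 and 94 counts in WT DMSO, and 7, 7 and 10 in untreated E14, and Samd9l had 9 and 7 in WT DMSO, and 74, 42 and 62 in untreated E14. N22 DMSO, with 1003 and 976 Bhlhe40 counts and 72 and 49 Ppp1r3b counts, was nearer to WT DMSO. The untreated Dux-KO clones 15, 22 and 52 had 952, 219 and 316 Bhlhe40 counts. The part of the solvent, the culture or the line in these values was not tested.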
